A study of Homo sapiens with 12 samples.

Results

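The 52 genes described here encode the machinery of mitosis. They cover the kinetochore and its checkpoint, the chromosomal passenger complex, cohesin and its release, and condensin. They also cover the cyclins and kinases of mitotic entry, the partners of the anaphase-promoting complex, the spindle and cytokinesis, and the transcription factors of the late cell cycle with the proliferation marker MKI67. They were taken as a named list, found by gene symbol among the 58302 genes of the first table and carried by gene identifier into the 50868 genes of the second. All 52 were listed in both tables at the same coordinates and passed the filter on low counts in every comparison. RNA was sequenced from SW1990 cells, an established human pancreatic adenocarcinoma line that was taken from a metastasis in the spleen, after 24 h in medium without glucose. The cells carried a form of PHGDH that the labels call rPHGDH. PHGDH catalyses the first step of serine synthesis from a glycolytic intermediate, and the series is titled for an alternative activity of the nuclear protein. There were 4 groups of 3 libraries: S371A, whose form carries that substitution, beside the wild-type form WT-1 in experiment 1, and S55A, likewise, beside the wild-type form WT-2 in experiment 2. The experiment was read from the number 1 or 2 in the sample titles. All 12 libraries came from cells without glucose. The labels explain neither the prefix of rPHGDH nor what became of the cells' own gene, and they do not say whether each form is 1 clone. Each mutant was measured in 1 experiment, so a difference between the mutants cannot be told apart from a difference between the experiments.

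During mitosis, kinetochores built on centromeric chromatin attach chromosomes to spindle microtubules, and the spindle checkpoint holds back the anaphase-promoting complex until they are attached. Condensin compacts the chromosomes, cohesin keeps sister chromatids together until separase cuts it, and the Aurora B kinase of the chromosomal passenger complex corrects faulty attachments. The transcripts of many of these proteins accumulate together late in the cell cycle under FOXM1, MYBL2 and the MuvB complexes. In dividing cells, such transcripts often move as a block.

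Library totals lay between 13667033 and 19240270 counts, and the lowest count of any member in any library was 104. The PHGDH transcript cannot check the labels, since the substitutions leave it countable. It stood at 196, 183 and 224 CPM (counts scaled to library totals with TMM factors) in S371A, against 470.0, 495 and 456 in WT-1. In experiment 2 it stood at 364, 359 and 346 CPM in S55A, against 738, 706 and 734 in WT-2. The mutants thus carried less PHGDH transcript than their wild types, with log2 fold changes of -1.24 ± 0.08 and -1.03 ± 0.05 (edgeR adjusted p = 0.000316 and 7.18e-05). The part of this difference in the results on the mitotic genes was not tested. KRT8, KRT18, KRT19, CDH1 and EPCAM marked all 12 libraries: the summed level of the 6 epithelial markers was 5465 to 6422 CPM in S371A and 4644 to 5080 in WT-1, and 4181 to 4454 in S55A and 2754 to 3116 in WT-2. KRT8 and KRT18 made up most of this sum. The keratin KRT7, also in the sum, was low at 2.10 to 5.29 CPM over the 12 libraries. Leukocyte markers summed to at most 2.25 CPM and endothelial ones to at most 0.508 CPM in any library, with CD3E and KDR at 0 throughout. Fibroblast markers summed to 10.3 to 12.7 CPM in S371A, 21.5 to 23.9 in WT-1, 14.9 to 26.9 in S55A and 9.50 to 19.0 in WT-2. PDGFRB made up most of it in every library except S55A replicate 2, where it stood at 12.1 of 26.9 CPM and the remainder was mainly collagen and other matrix transcripts. Acinar markers summed to at most 8.66 CPM, nearly all of it PRSS1. The labels do not tie replicates to separate cultures, and the p-values measure only how far these samples spread, which may be technical.

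Among the mitotic genes, calls in S371A ran upwards and calls in S55A downwards with 1 exception, each mutant set against its own wild type, and 23 of the 52 members were called in neither. In S371A, 21 of 52 members were higher than in WT-1 and 0 were lower (edgeR quasi-likelihood F test, Benjamini-Hochberg adjusted p under 0.05), where 7.05% of all genes tested were called higher and 5.53% lower. At an unadjusted p under 0.05, edgeR had 38 members higher and 0 lower, and DESeq2 and limma-voom with adjustment also called 0 lower. The share of all genes at an unadjusted p under 0.05 was not computed, for these counts or the later ones at that threshold. In S55A, 19 were lower than in WT-2 and 1, RAD21, was higher, where 7.06% of all genes were called lower and 8.97% higher. The median log2 fold change of the members was 0.25 in S371A and -0.25 in S55A, against -0.01 over all genes in each comparison. In bulk RNA, fewer cells in mitosis and less of a transcript per cell cannot be told apart. The direction was shared more widely than the calls: 46 members had a positive value in S371A and 43 a negative value in S55A. Positive values made up 88.5% of the members in S371A and 17.3% in S55A, against 48.6% and 48.7% of all genes tested. All 3 S371A libraries lay above all 3 WT-1 libraries in 37 members and below in 0, and all 3 S55A libraries lay below all 3 WT-2 libraries in 30 and above in 3. Over all genes tested, groups did not overlap in 36.5% in S371A and 38.2% in S55A. They stood apart upwards in 18.2% and downwards in 18.3% in S371A, and downwards in 18.7% and upwards in 19.5% in S55A. The summed level of the 52 members was 5538 ± 163 CPM in S371A and 4549 ± 201 in WT-1, and 4271 ± 309 in S55A and 4882 ± 47.4 in WT-2 (SD, n = 3 each).

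**Figure D1:**
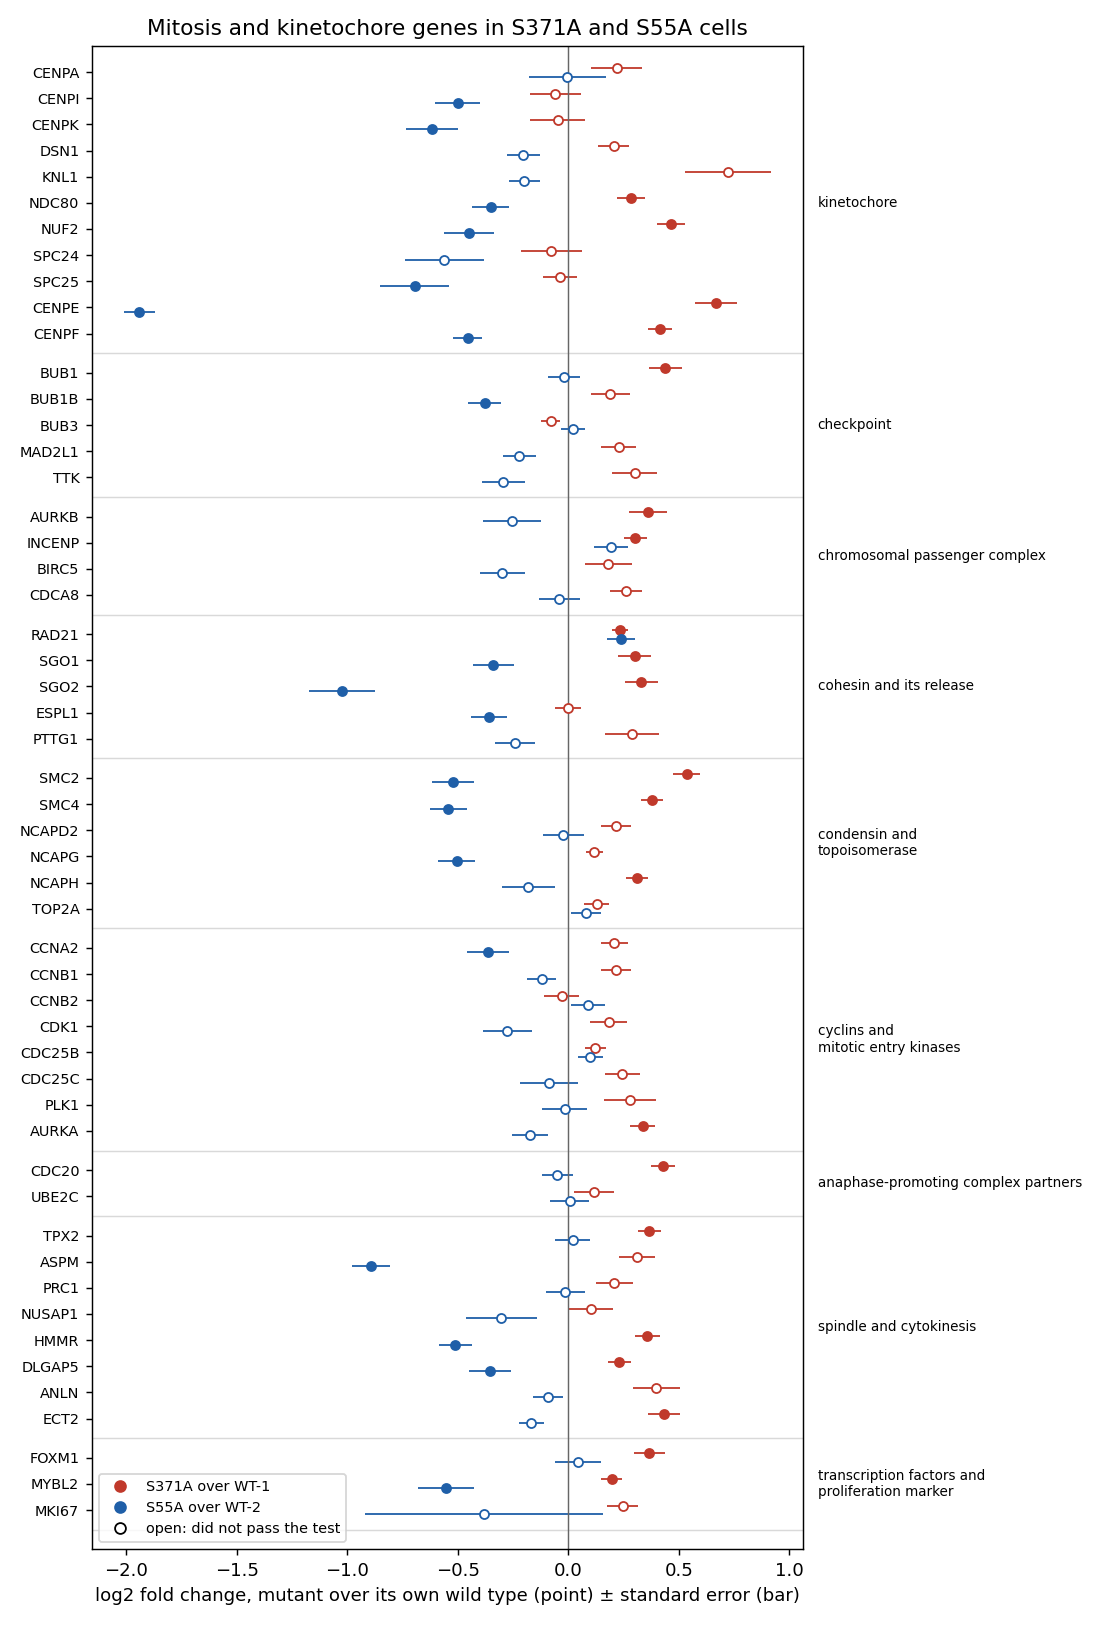
Log2 fold change of each member, S371A over WT-1 (red) and S55A over WT-2 (blue), with the standard error as a bar; filled points passed the edgeR test and members are grouped by role. The 21 filled red points lie right of 0, and the 20 filled blue points lie left of 0 except RAD21.

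Whether a member's effect differed between the mutants was tested directly, as the S371A effect minus the S55A effect over all 12 libraries. That difference was positive and passed the test in 31 of 52 members and was negative and passed in 0, where 6.43% of all genes were called positive and 6.10% negative. At an unadjusted p under 0.05, 37 were positive and 0 negative in edgeR, and DESeq2 and limma-voom with adjustment likewise called 0 negative. Its median was 0.49 on the log2 scale. Among the members, 11 were called higher in S371A and also lower in S55A: CENPE, CENPF, NUF2, NDC80, SGO1, SGO2, SMC2, SMC4, HMMR, DLGAP5 and MYBL2. Of 15126 genes tested in both experiments, 70 had that pattern, or 0.463%. A further 9 members were called higher in S371A with no call in S55A, 8 were called lower in S55A with no call in S371A, and 7 passed the test of the difference with a call in neither mutant. The shares of all genes with these patterns, or with a call in neither mutant, were not computed. Leaving out 1 library lowered the numbers of called members: without WT-1 replicate 2, 13 were called in S371A and 20 in the difference. In S55A, 12 were called without S55A replicate 1, 12 without WT-2 replicate 1, 13 without WT-2 replicate 2 and 12 without WT-2 replicate 3, all of them lower. In no fit that left out a library did a called member change sign.

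**Figure D2:**
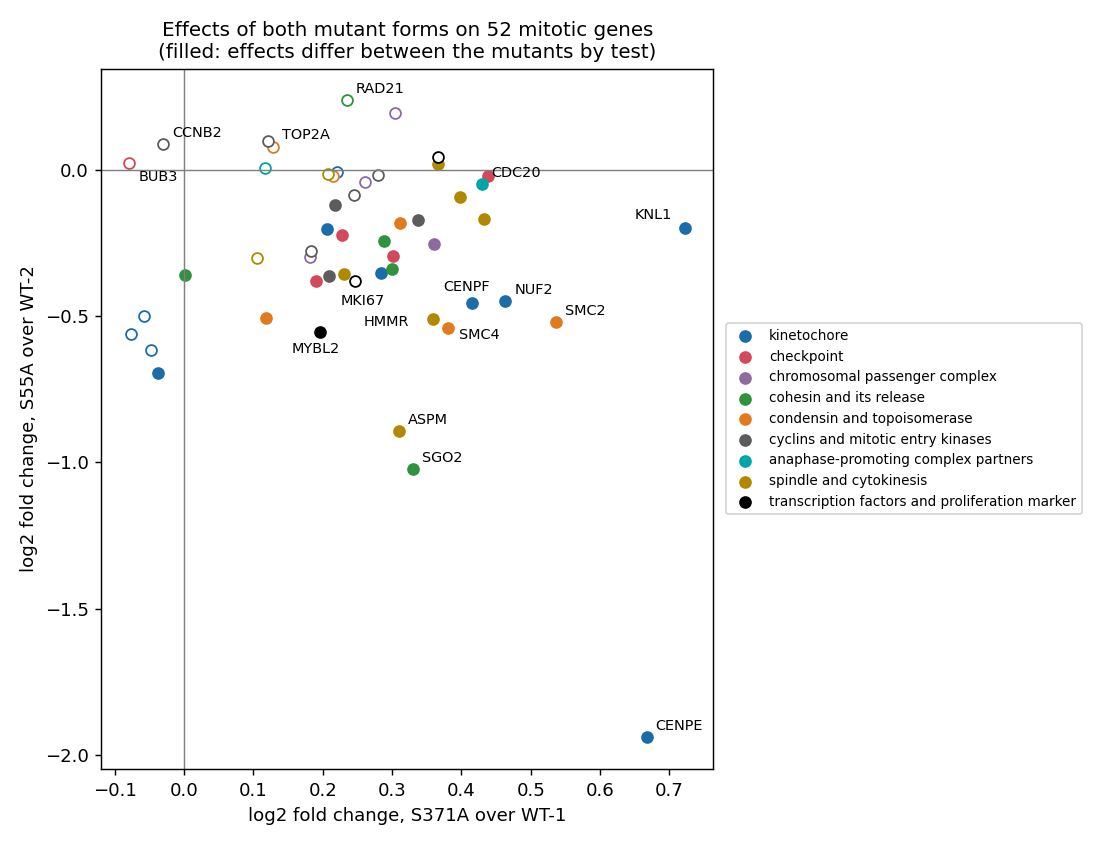
Each member's log2 fold change in S371A over WT-1 (horizontal) against that in S55A over WT-2 (vertical), coloured by role; filled points passed the edgeR test of the difference between the mutant effects. Of the 52 points, 39 lie in the lower right, positive in S371A and negative in S55A, with CENPE farthest from the rest at 0.67 and -1.94. The share of all genes with those signs was not computed.

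Many of the members are known to be transcribed together. The sequence around the start site was therefore read from RefSeq (GRCh38.p14) for the 43 members with an entry. Each window ran from 250 bases before to 50 after the start. AURKA, BIRC5, BUB3, FOXM1, KNL1, RAD21, TPX2, TTK and UBE2C were not matched. Searched on both strands were TTTGAA, the core of the cell cycle genes homology region bound by MuvB complexes, and CCAAT, bound by NF-Y. The motifs overlapped in 2 members. TTTGAA was found in 27 of the 43 windows (62.8%) and in 15.4% of 27305 windows, 1 for each gene with an entry. CCAAT was found in 30 of the 43 (69.8%) and in 35.7% of all, and both motifs stood in 20 of the 43 (46.5%) and in 6.08% of all. By call, TTTGAA stood in 16 of the 27 matched members whose effect differed between the mutants and in 11 of the 16 whose effect did not pass, and CCAAT in 17 of 27 and 13 of 16. The 120 bases that end just before the outermost annotated start are shown for CENPE and CENPF, which were called in opposite directions in the mutants, for ASPM, called in S55A, for CDC20, called in S371A, and for TOP2A, called in neither. All are written 5′ to 3′ on the strand of the gene, with both motifs and their complements in capitals.
CENPE, chr4:103198410-103198529, minus strand: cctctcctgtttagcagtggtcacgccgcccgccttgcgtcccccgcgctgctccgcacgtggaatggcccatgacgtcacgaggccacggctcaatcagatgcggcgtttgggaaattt
CENPF, chr1:214603075-214603194, plus strand: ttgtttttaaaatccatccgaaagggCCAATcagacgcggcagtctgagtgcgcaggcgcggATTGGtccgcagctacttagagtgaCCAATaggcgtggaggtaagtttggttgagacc
ASPM, chr1:197146695-197146814, minus strand: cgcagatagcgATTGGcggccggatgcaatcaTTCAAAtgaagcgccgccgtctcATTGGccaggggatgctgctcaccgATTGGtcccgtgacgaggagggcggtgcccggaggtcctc
CDC20, chr1:43358835-43358954, plus strand: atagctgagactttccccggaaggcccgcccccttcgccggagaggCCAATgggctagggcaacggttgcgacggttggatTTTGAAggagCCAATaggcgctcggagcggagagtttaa
TOP2A, chr17:40417951-40418070, minus strand: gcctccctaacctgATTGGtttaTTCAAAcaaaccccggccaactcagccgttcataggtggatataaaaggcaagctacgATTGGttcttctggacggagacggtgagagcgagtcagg
The stretch of CENPE held neither motif, that of CENPF 3 CCAAT and no TTTGAA, and those of ASPM, CDC20 and TOP2A held both. Past the printed stretch, the searched window of CENPF did hold TTTGAA, at position 41 after the start, and a further CCAAT at position 13. TOP2A, with no call, and ASPM, with one of the larger falls, both carried the pair of motifs. Whether the motifs go along with the effects was not tested.

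At the kinetochore, 4 of 11 members were higher in S371A and 7 were lower in S55A, and the difference between the effects passed for 7. Their summed level was 962 ± 47.9 CPM in S371A and 715 ± 42.9 in WT-1, and 483 ± 9.97 in S55A and 691 ± 19.7 in WT-2 (SD, n = 3 each). CENPE, the kinesin motor that carries chromosomes to the spindle equator (chr4:103105806-103198409 on GRCh38, minus strand), had the largest difference between the mutants of all 52 members. It stood at 110.3, 132 and 118 CPM in S371A, against 84.4, 73.4 and 69.1 in WT-1, and at 20.4, 21.3 and 20.8 in S55A, against 79.996, 79.3 and 80.5 in WT-2. No S371A library overlapped WT-1 and the S55A libraries lay close together far below WT-2, with log2 fold changes of 0.67 ± 0.09 and -1.94 ± 0.07 (edgeR adjusted p = 0.00764 and 8.69e-06) and a difference of 2.61 ± 0.11, edgeR adjusted p = 3.15e-07. CENPF, a large coiled-coil protein of the outer kinetochore, had 519, 583 and 543 CPM in S371A, against 428, 395 and 411 in WT-1, and 255, 242 and 278 in S55A, against 347, 362 and 353 in WT-2. It had the highest CPM of the kinetochore members, and again both pairs of groups stood apart (0.41 ± 0.06 and -0.46 ± 0.07, edgeR adjusted p = 0.00572 and 0.00361, difference 0.87 ± 0.08, edgeR adjusted p = 8.75e-05).

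The NDC80 complex, which grips microtubules, has the subunits NDC80, NUF2, SPC24 and SPC25. NDC80 and NUF2 were called in opposite directions in the mutants. SPC25 was called lower in S55A only, and SPC24 was called in neither mutant. NUF2 had 34.8, 37.99 and 34.9 CPM in S371A, against 26.1, 26.4 and 25.6 in WT-1, and 23.4, 23.8 and 24.2 in S55A, against 29.7, 38.4 and 29.6 in WT-2. Both pairs of groups were apart, although WT-2 replicate 2 was well above its fellows (0.46 ± 0.06 and -0.45 ± 0.11, edgeR adjusted p = 0.0062 and 0.0314, difference 0.92 ± 0.13, edgeR adjusted p = 0.00134). NDC80 had 42.6, 45.3 and 42.5 CPM in S371A, against 33.9, 37.3 and 36.1 in WT-1, and 29.01, 31.5 and 28.9 in S55A, against 36.6, 40.7 and 36.7 in WT-2. Its groups did not overlap either, with smaller steps of 0.28 ± 0.06 and -0.35 ± 0.08 (edgeR adjusted p = 0.0286 and 0.0249, difference 0.64 ± 0.10, edgeR adjusted p = 0.00165). SPC25 had 16.4, 16.000 and 15.4 CPM in S371A, against 17.1, 15.4 and 16.5 in WT-1, and 8.98, 8.29 and 6.20 in S55A, against 11.8, 12.9 and 13.3 in WT-2. The S371A and WT-1 libraries overlapped (-0.04 ± 0.08, edgeR adjusted p = 0.795), while every S55A library was below every WT-2 library (-0.70 ± 0.15, edgeR adjusted p = 0.0198, difference 0.66 ± 0.17, edgeR adjusted p = 0.0287). SPC24 passed neither test, at -0.08 ± 0.14 in S371A and -0.56 ± 0.18 in S55A. The subunits that connect the complex to the centromere, SPC24 and SPC25, thus did not pass in S371A, and the microtubule-binding pair NDC80 and NUF2 did; that contrast between subunits was not tested.

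KNL1, the scaffold that recruits the BUB proteins, had 110.5, 124 and 119.6 CPM in S371A, against 94.2, 60.6 and 59.3 in WT-1, and 59.8, 60.8 and 56.3 in S55A, against 64.1, 69.6 and 69.5 in WT-2. WT-1 replicate 1 was far above the other WT-1 libraries, and the largest log2 fold change of the members in S371A did not pass (0.72 ± 0.20, edgeR adjusted p = 0.0711). The small step in S55A did not pass either (-0.20 ± 0.07, edgeR adjusted p = 0.0875), but the difference did (0.93 ± 0.21, edgeR adjusted p = 0.0158). DSN1, of the MIS12 complex that bridges centromere and outer kinetochore, had 18.7, 19.4 and 19.4 CPM in S371A, against 16.7, 16.005 and 17.2 in WT-1, and 36.8, 38.5 and 36.8 in S55A, against 42.2, 41.4 and 45.5 in WT-2. Groups stood apart in both experiments without a call, and the difference passed (0.41 ± 0.09, edgeR adjusted p = 0.0126). CENPK, of the inner network on centromeric chromatin, had 24.9, 19.8 and 23.6 CPM in S371A, against 24.8, 25.8 and 20.03 in WT-1, and 15.2, 17.2 and 13.7 in S55A, against 21.5, 25.6 and 23.7 in WT-2. Only the S55A libraries were apart from their wild type (-0.62 ± 0.12, edgeR adjusted p = 0.0111), and the difference did not pass (edgeR adjusted p = 0.0595). CENPI of the same network was lower in S55A as well (-0.50 ± 0.10, edgeR adjusted p = 0.0135), and CENPA, the centromeric histone, passed nowhere. With 1 library left out, NDC80 lost its S371A call without any 1 of the 6 libraries (edgeR adjusted p up to 0.0866). In S55A, CENPI lost its call without WT-2 replicate 1 (edgeR adjusted p up to 0.0558). SPC25 lost it without WT-2 replicate 2 or 3 (edgeR adjusted p up to 0.0654). NDC80 lost it without any 1 library other than S55A replicate 2 (edgeR adjusted p up to 0.0891). NUF2 lost it without any 1 library other than WT-2 replicate 1 and WT-2 replicate 3 (edgeR adjusted p up to 0.0937). The difference of SPC25 was lost without S371A replicate 1 or 2, any WT-1 library or WT-2 replicate 2 or 3 (edgeR adjusted p up to 0.0774).

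**Figure D3:**
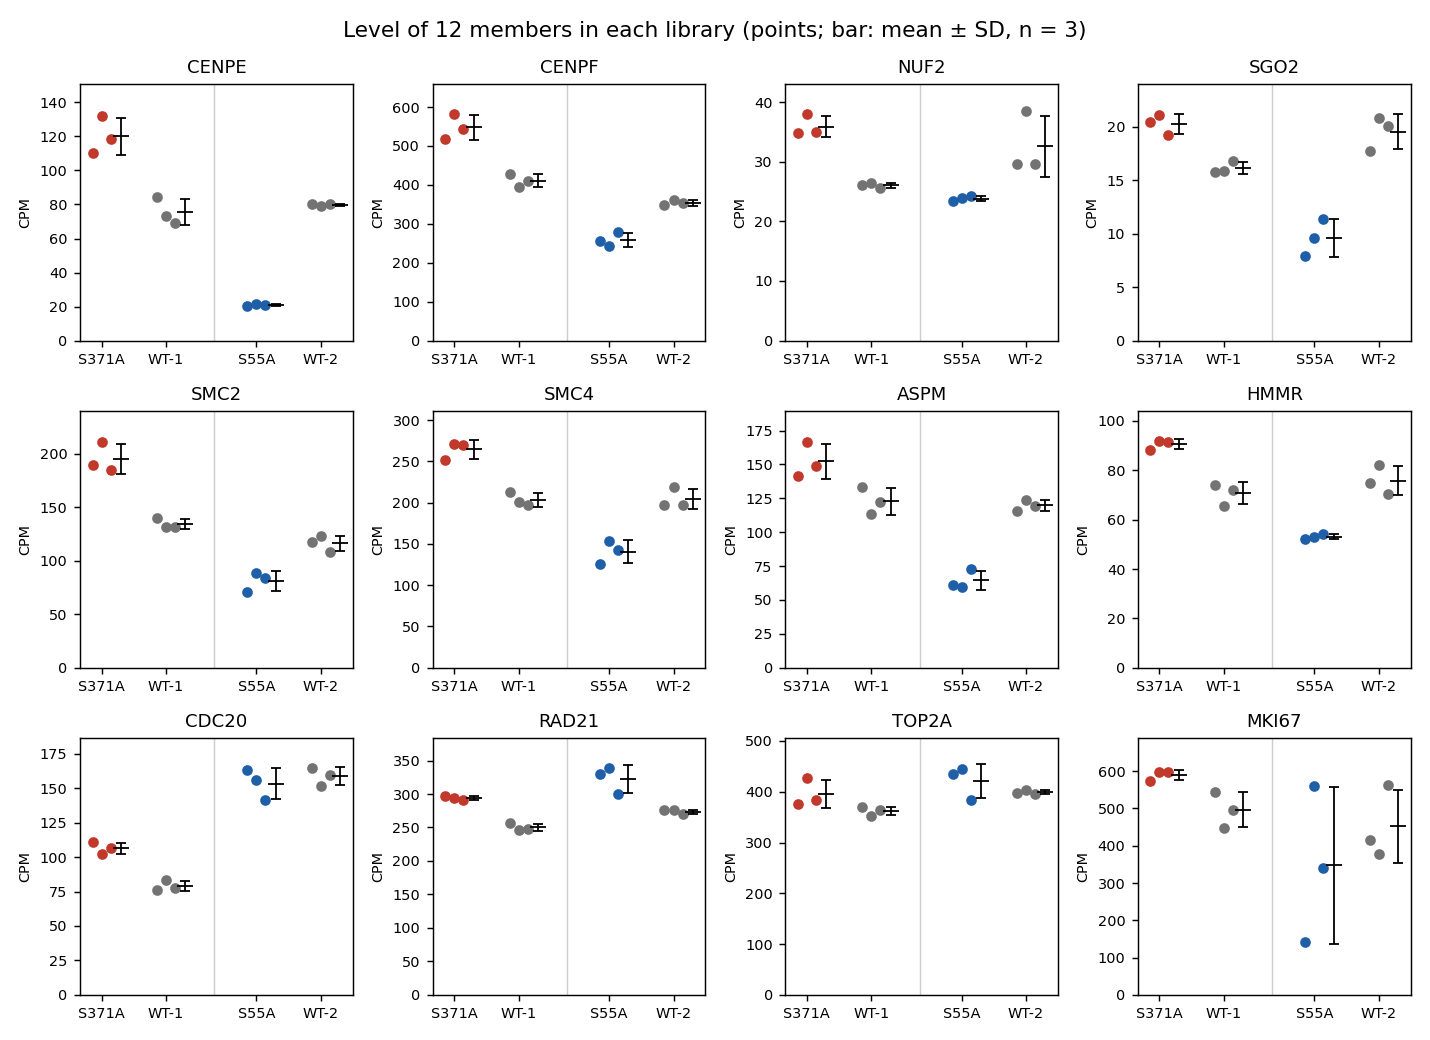
Level of 12 members in each library, in CPM, with points for libraries and a bar for the mean ± SD (n = 3). CENPE sits between 20.4 and 21.3 CPM in S55A, against 79.3 to 80.5 in WT-2, while TOP2A and RAD21 do not fall in S55A and the MKI67 libraries of experiment 2 are widely spread.

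Of the 5 checkpoint members, 1 was higher in S371A, 1 was lower in S55A, and 4 differed between the mutants. Over all genes tested, 7.05% were called higher in S371A and 7.06% lower in S55A, and the difference was called positive in 6.43%. The counts of 1 in 5 are too small to be set apart from these shares and were not tested against them. BUB1, the kinase that docks checkpoint proteins on KNL1, had 106, 123 and 112 CPM in S371A, against 89.9, 78.96 and 82.6 in WT-1, and 86.04, 95.03 and 88.6 in S55A, against 92.04, 96.8 and 84.5 in WT-2. It was higher in every S371A library (0.44 ± 0.07, edgeR adjusted p = 0.0135) and overlapped in experiment 2 (-0.02 ± 0.07, edgeR adjusted p = 0.89), with a difference of 0.46 ± 0.11, edgeR adjusted p = 0.0159. BUB1B, a subunit of the mitotic checkpoint complex, showed the reverse split, with 49.99, 61.3 and 55.02 CPM in S371A, against 46.9, 46.6 and 52.2 in WT-1, and 39.6, 41.4 and 41.4 in S55A, against 55.6, 53.7 and 49.95 in WT-2. The S371A and WT-1 ranges overlapped (0.19 ± 0.09, edgeR adjusted p = 0.197), and all S55A libraries were below WT-2 (-0.38 ± 0.07, edgeR adjusted p = 0.012, difference 0.57 ± 0.11, edgeR adjusted p = 0.00663).
MAD2L1, the inhibitor that binds CDC20, had 49.1, 45.3 and 52.1 CPM in S371A, against 45.5, 39.4 and 40.1 in WT-1, and 43.1, 43.4 and 40.7 in S55A, against 50.2, 46.5 and 51.6 in WT-2. Neither mutant passed and only experiment 2 was without overlap, but the difference passed (0.45 ± 0.11, edgeR adjusted p = 0.0181). TTK, the kinase that starts checkpoint signalling, had 52.97, 65.8 and 52.5 CPM in S371A, against 49.9, 45.6 and 43.5 in WT-1, and 38.9, 46.7 and 39.4 in S55A, against 54.8, 47.7 and 50.8 in WT-2. Its groups were apart in both experiments without a call, and the difference passed (0.60 ± 0.15, edgeR adjusted p = 0.0214). BUB3, the adaptor of the BUB kinases, was at -0.08 ± 0.04 in S371A and 0.02 ± 0.06 in S55A, with no call anywhere. The S55A call of BUB1B was lost without S55A replicate 1 or WT-2 replicate 1 (edgeR adjusted p up to 0.0558). BUB1 lost the call of the difference without WT-1 replicate 2 (edgeR adjusted p up to 0.0517). MAD2L1 lost it without WT-1 replicate 2 or 3 (edgeR adjusted p up to 0.0581). TTK lost it without S371A replicate 2, WT-1 replicate 2 or 3, S55A replicate 1 or WT-2 replicate 1 (edgeR adjusted p up to 0.0603).

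In the chromosomal passenger complex, 2 of 4 members were higher in S371A, 0 were called in S55A, and AURKB alone passed the test of the difference. At an unadjusted edgeR p under 0.05, 1 was higher and 1 lower in S55A. AURKB, the kinase of the complex, had 18.98, 21.5 and 18.3 CPM in S371A, against 15.6, 15.2 and 14.98 in WT-1, and 13.9, 15.4 and 11.4 in S55A, against 15.5, 16.1 and 17.01 in WT-2. The groups were apart in both experiments, with a call in S371A (0.36 ± 0.09, edgeR adjusted p = 0.0381) and not in S55A (-0.25 ± 0.13, edgeR adjusted p = 0.22), and the difference was 0.62 ± 0.16, edgeR adjusted p = 0.024. INCENP, its scaffold, ran another way, with 75.6, 78.1 and 80.7 CPM in S371A, against 63.2, 60.3 and 66.2 in WT-1, and 59.6, 65.2 and 68.4 in S55A, against 59.2, 53.4 and 56.3 in WT-2. Its libraries were above the wild type in both mutants, with a call in S371A (0.30 ± 0.05, edgeR adjusted p = 0.0147) but not in S55A (0.19 ± 0.08, edgeR adjusted p = 0.13), and no difference passed (edgeR adjusted p = 0.479). BIRC5 (survivin) and CDCA8 (borealin) passed nowhere, at 0.18 ± 0.11 and 0.26 ± 0.07 in S371A and -0.30 ± 0.10 and -0.04 ± 0.09 in S55A. AURKB lost its S371A call without any 1 of the 6 libraries (edgeR adjusted p up to 0.117). INCENP lost its own without WT-1 replicate 1 or 2 (edgeR adjusted p up to 0.0554). The difference of AURKB was lost without S371A replicate 2, any WT-1 library or WT-2 replicate 3 (edgeR adjusted p up to 0.0695).

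RAD21 and the members that guard or release cohesin differed in their calls, a contrast between genes that was not tested. RAD21, the cohesin subunit that separase cuts, was the only member called the same way in both mutants, with 297, 294 and 291 CPM in S371A, against 256, 246 and 248 in WT-1, and 329.9, 339.5 and 299 in S55A, against 275, 275 and 270.5 in WT-2. All libraries of both mutants were above their wild types (0.23 ± 0.04 and 0.24 ± 0.06, edgeR adjusted p = 0.00988 and 0.0373), and the difference was 0.00 ± 0.07, edgeR adjusted p = 1. SMC3, another core subunit of cohesin and no member, had no call in S371A (0.14 ± 0.05, edgeR adjusted p = 0.152) or S55A (-0.23 ± 0.07, edgeR adjusted p = 0.0559), and its difference passed with the sign of the shugoshins (0.37 ± 0.09, edgeR adjusted p = 0.0185). SGO2, a shugoshin that protects centromeric cohesin, had 20.4, 21.1 and 19.3 CPM in S371A, against 15.7, 15.8 and 16.7 in WT-1, and 7.87, 9.55 and 11.4 in S55A, against 17.7, 20.8 and 20.1 in WT-2. Groups stood apart both ways, and the S55A step was second in size to that of CENPE among the members (0.33 ± 0.07 and -1.02 ± 0.15, edgeR adjusted p = 0.0313 and 0.00382, difference 1.36 ± 0.17, edgeR adjusted p = 0.000507). SGO1, the mitotic shugoshin, had 29.03, 30.5 and 29.05 CPM in S371A, against 24.4, 22.1 and 25.4 in WT-1, and 17.9, 18.3 and 20.6 in S55A, against 23.9, 24.5 and 23.5 in WT-2. It showed the same split in smaller steps (0.30 ± 0.07 and -0.34 ± 0.09, edgeR adjusted p = 0.0416 and 0.0403, difference 0.64 ± 0.11, edgeR adjusted p = 0.00345).
ESPL1, separase, had 49.4, 53.6 and 48.7 CPM in S371A, against 51.000, 52.1 and 48.7 in WT-1, and 46.9, 44.3 and 45.3 in S55A, against 60.6, 53.001 and 61.2 in WT-2. Experiment 1 showed no separation of the groups (0.00 ± 0.06, edgeR adjusted p = 0.997) and experiment 2 a fall (-0.36 ± 0.08, edgeR adjusted p = 0.0201), with a difference of 0.36 ± 0.10, edgeR adjusted p = 0.03. PTTG1, the securin that holds separase in check, had 34.98, 29.9 and 31.7 CPM in S371A, against 31.1, 24.2 and 23.7 in WT-1, and 39.4, 34.6 and 33.999 in S55A, against 44.1, 39.4 and 44.2 in WT-2. The ranges overlapped in each experiment, with no call in either mutant, and the difference passed by a small margin (0.54 ± 0.16, edgeR adjusted p = 0.0453). SGO2 lost its S371A call without any 1 of the 6 libraries (edgeR adjusted p up to 0.102). SGO1 lost its S371A call without any 1 of the 6 libraries (edgeR adjusted p up to 0.11). In S55A, RAD21 lost its call without any 1 library other than S55A replicate 3 (edgeR adjusted p up to 0.127). ESPL1 lost it without any 1 library other than S55A replicate 3 and WT-2 replicate 2 (edgeR adjusted p up to 0.0778). SGO1 lost it without any 1 library other than S55A replicate 3 (edgeR adjusted p up to 0.133). The difference of ESPL1 was lost without any 1 library other than S371A replicate 3, S55A replicate 1 and WT-2 replicate 2 (edgeR adjusted p up to 0.087). PTTG1 lost its difference without any 1 library other than WT-1 replicate 1 and S55A replicate 1 (edgeR adjusted p up to 0.116).

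Among the condensin genes and TOP2A, 3 of 6 were higher in S371A, 3 were lower in S55A, and 4 differed between the mutants. SMC2, 1 of the core ATPases of condensin, had 189, 211 and 184 CPM in S371A, against 140.0, 132 and 131 in WT-1, and 70.4, 88.5 and 83.9 in S55A, against 118, 123 and 108 in WT-2. Its groups stood well apart both ways (0.54 ± 0.06 and -0.52 ± 0.09, edgeR adjusted p = 0.00349 and 0.00878, difference 1.06 ± 0.12, edgeR adjusted p = 0.000248), and it had the smallest p of all members in S371A. SMC4, its partner ATPase, had 252, 272 and 270.0 CPM in S371A, against 212, 200.2 and 197 in WT-1, and 126, 153 and 143 in S55A, against 198, 218 and 198 in WT-2. The partners moved alike, with SMC4 at 0.38 ± 0.05 and -0.54 ± 0.08 (edgeR adjusted p = 0.00532 and 0.00507, difference 0.93 ± 0.10, edgeR adjusted p = 0.000212). The regulatory subunits of condensin I did not follow in full. NCAPG had 105, 104 and 104 CPM in S371A, against 95.6, 94.8 and 97.4 in WT-1, and 66.2, 71.9 and 59.4 in S55A, against 94.9, 97.01 and 88.3 in WT-2. The step in S371A was small and did not pass (0.12 ± 0.04, edgeR adjusted p = 0.0909), while S55A was clearly lower (-0.50 ± 0.08, edgeR adjusted p = 0.00639, difference 0.63 ± 0.09, edgeR adjusted p = 0.00142). NCAPH, the kleisin of the complex, had 45.04, 44.9 and 45.5 CPM in S371A, against 37.3, 35.3 and 36.5 in WT-1, and 35.8, 34.7 and 26.6 in S55A, against 39.4, 35.7 and 34.8 in WT-2. Here S371A was higher with little spread (0.31 ± 0.05, edgeR adjusted p = 0.012), and S55A, with replicate 3 below the others, overlapped WT-2 (-0.18 ± 0.12, edgeR adjusted p = 0.349, difference 0.50 ± 0.14, edgeR adjusted p = 0.0378). NCAPD2 was at 0.21 ± 0.07 in S371A and -0.02 ± 0.09 in S55A, with no call. TOP2A, the topoisomerase that untangles sister chromatids, was at 0.13 ± 0.06 and 0.08 ± 0.07, with no call and a positive value in each. The difference of NCAPH was lost without any 1 library other than S55A replicate 1, S55A replicate 2 and S55A replicate 3 (edgeR adjusted p up to 0.106). Every other condensin call was kept with each library left out in turn.

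Of the 8 cyclins and entry kinases, 1 was higher in S371A, 1 was lower in S55A, and 3 differed between the mutants. Over all genes tested, 7.05% were called higher in S371A and 7.06% lower in S55A. The difference was called positive in 6.43%. The counts of 1 in 8 lie near these shares and were not tested against them. CCNA2, cyclin A2, had 55.2, 59.7 and 60.3 CPM in S371A, against 51.9, 47.6 and 52.1 in WT-1, and 42.2, 41.4 and 34.9 in S55A, against 49.6, 48.7 and 54.1 in WT-2. Groups were apart in both experiments, with a call in S55A (-0.36 ± 0.09, edgeR adjusted p = 0.0347) and not in S371A (0.21 ± 0.06, edgeR adjusted p = 0.0692), and a difference of 0.58 ± 0.11, edgeR adjusted p = 0.0071. AURKA, the spindle pole kinase, had 49.1, 51.8 and 49.01 CPM in S371A, against 40.5, 37.5 and 40.7 in WT-1, and 53.6, 47.7 and 45.1 in S55A, against 55.9, 55.4 and 53.6 in WT-2. It was higher in S371A (0.34 ± 0.06, edgeR adjusted p = 0.0136), was not called in S55A (-0.17 ± 0.08, edgeR adjusted p = 0.192), and differed by 0.51 ± 0.10, edgeR adjusted p = 0.00582. CCNB1, cyclin B1, had 65.5, 64.1 and 57.5 CPM in S371A, against 50.7, 55.96 and 54.2 in WT-1, and 80.2, 75.4 and 70.6 in S55A, against 82.98, 80.3 and 82.5 in WT-2. The steps were small and neither was called, and the difference passed at 0.34 ± 0.10, edgeR adjusted p = 0.0369. CDK1, the kinase these cyclins activate, passed nowhere (0.18 ± 0.08 in S371A and -0.28 ± 0.11 in S55A). PLK1 (0.28 ± 0.12 and -0.02 ± 0.10) and CCNB2 (-0.03 ± 0.08 and 0.09 ± 0.08) had no call either. The CDK1-activating phosphatases CDC25B (0.12 ± 0.05 and 0.10 ± 0.06) and CDC25C (0.24 ± 0.08 and -0.09 ± 0.13) passed nowhere. CCNA2 lost its S55A call without any 1 of the 6 libraries (edgeR adjusted p up to 0.11). The difference of CCNB1 was lost without any 1 library other than S371A replicate 3 and S55A replicate 1 (edgeR adjusted p up to 0.11).

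Of the partners of the anaphase-promoting complex, CDC20 was called in S371A and UBE2C passed nowhere. CDC20, the activator of the complex, had 111, 102 and 106 CPM in S371A, against 76.4, 83.1 and 77.5 in WT-1, and 163, 156 and 141 in S55A, against 164, 152 and 159.7 in WT-2. All S371A libraries were above WT-1 (0.43 ± 0.05, edgeR adjusted p = 0.00461), the S55A and WT-2 ranges overlapped (-0.05 ± 0.07, edgeR adjusted p = 0.691), and the difference passed (0.48 ± 0.09, edgeR adjusted p = 0.00534) with every library left out in turn. UBE2C, the ubiquitin-conjugating enzyme of the complex, was at 0.12 ± 0.09 in S371A and 0.01 ± 0.09 in S55A.

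Among the spindle and cytokinesis genes, 4 of 8 were higher in S371A, 3 were lower in S55A, and 6 differed between the mutants. ASPM, which organises spindle poles, had 142, 167 and 149 CPM in S371A, against 133, 113 and 122 in WT-1, and 61.1, 59.6 and 72.6 in S55A, against 116, 124 and 119.6 in WT-2. S371A was above WT-1 in every library without passing (0.31 ± 0.08, edgeR adjusted p = 0.0516), while S55A was far below WT-2 (-0.89 ± 0.09, edgeR adjusted p = 0.000867, difference 1.21 ± 0.12, edgeR adjusted p = 0.000141). HMMR, a spindle assembly factor, had 88.2, 91.9 and 91.7 CPM in S371A, against 74.3, 65.6 and 72.005 in WT-1, and 52.1, 53.1 and 54.3 in S55A, against 74.9, 82.002 and 70.3 in WT-2. Both pairs of groups stood apart with narrow mutant ranges (0.36 ± 0.06 and -0.51 ± 0.08, edgeR adjusted p = 0.011 and 0.00395, difference 0.87 ± 0.09, edgeR adjusted p = 0.000163). DLGAP5, which stabilises kinetochore microtubules, had 45.1, 46.95 and 48.05 CPM in S371A, against 38.9, 40.3 and 40.2 in WT-1, and 37.5, 36.2 and 37.8 in S55A, against 42.95, 53.7 and 46.2 in WT-2. It followed HMMR at smaller size (0.23 ± 0.05 and -0.35 ± 0.09, edgeR adjusted p = 0.0327 and 0.0376, difference 0.59 ± 0.11, edgeR adjusted p = 0.0047).
ECT2, the exchange factor that switches on RhoA for cytokinesis, had 162, 169 and 169.5 CPM in S371A, against 135, 111 and 125 in WT-1, and 156, 155 and 147 in S55A, against 169, 174 and 170.2 in WT-2. The rise in S371A passed (0.43 ± 0.07, edgeR adjusted p = 0.0127) and the step in S55A did not, although its libraries lay below WT-2 (-0.17 ± 0.06, edgeR adjusted p = 0.0788, difference 0.60 ± 0.09, edgeR adjusted p = 0.00142). TPX2, the activator of AURKA on the spindle, had 179, 198 and 199 CPM in S371A, against 151, 148 and 147 in WT-1, and 185, 189 and 156 in S55A, against 176, 170.2 and 176 in WT-2. Every S371A library was higher (0.37 ± 0.05, edgeR adjusted p = 0.00725), S55A replicate 3 was below and the other S55A libraries above WT-2 (0.02 ± 0.08, edgeR adjusted p = 0.897), and the difference was 0.35 ± 0.10, edgeR adjusted p = 0.0363. ANLN, the cleavage furrow scaffold anillin, had 96.02, 118 and 111 CPM in S371A, against 91.3, 72.6 and 82.6 in WT-1, and 67.2, 72.3 and 70.1 in S55A, against 73.8, 71.2 and 78.3 in WT-2. Neither mutant passed, and the difference did (0.49 ± 0.13, edgeR adjusted p = 0.0264). PRC1, the bundler of midzone microtubules, and NUSAP1, another microtubule-binding spindle protein, were at 0.21 ± 0.08 and 0.10 ± 0.10 in S371A and -0.01 ± 0.09 and -0.30 ± 0.16 in S55A, with no call. DLGAP5 lost its S371A call without any 1 library other than S371A replicate 1 (edgeR adjusted p up to 0.101). It lost its S55A call without any 1 library other than WT-2 replicate 1 (edgeR adjusted p up to 0.113). The difference of TPX2 was lost without S371A replicate 2 or 3, any WT-1 library or any WT-2 library (edgeR adjusted p up to 0.107). ANLN lost its difference without S371A replicate 2 or 3, WT-1 replicate 2 or 3, S55A replicate 1 or WT-2 replicate 1 or 3 (edgeR adjusted p up to 0.0715).

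**Figure D4:**
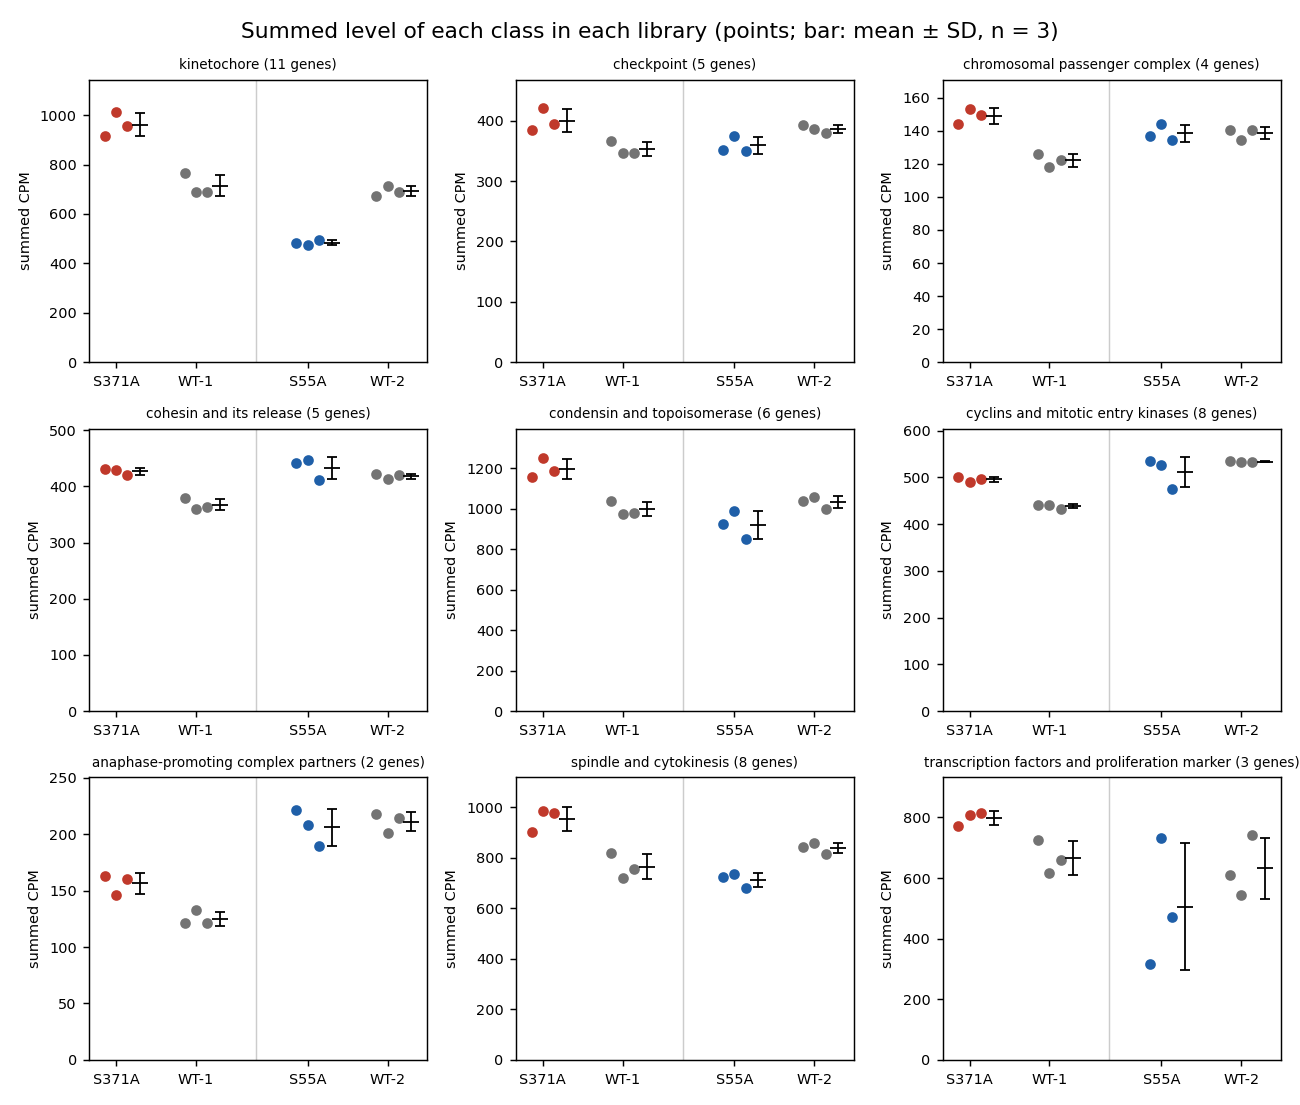
Summed level of each role class in each library, in CPM, with points for libraries and a bar for the mean ± SD (n = 3); each panel starts at 0. The S371A libraries lie above WT-1 in all 9 panels, while the S55A libraries lie below WT-2 for the kinetochore, checkpoint, condensin and spindle classes and overlap WT-2 in the others.

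The transcription factors FOXM1 and MYBL2, which drive late cell cycle genes, were both higher in S371A, and MYBL2 alone was called in S55A; the contrast between them was not tested. MYBL2 had 80.8, 80.6 and 84.8 CPM in S371A, against 73.7, 72.6 and 68.6 in WT-1, and 57.1, 58.5 and 42.5 in S55A, against 82.7, 71.3 and 77.8 in WT-2. It was higher in S371A (0.20 ± 0.05, edgeR adjusted p = 0.0438) and lower in S55A (-0.55 ± 0.13, edgeR adjusted p = 0.0225), where replicate 3 lay under the other libraries, with a difference of 0.75 ± 0.15, edgeR adjusted p = 0.00656. FOXM1 had 118, 129 and 133 CPM in S371A, against 106, 93.6 and 94.5 in WT-1, and 116, 112 and 90.2 in S55A, against 110.5, 95.6 and 102 in WT-2. The S371A rise passed (0.37 ± 0.07, edgeR adjusted p = 0.0194), experiment 2 showed overlapping ranges (0.05 ± 0.10, edgeR adjusted p = 0.805), and the difference did not pass (edgeR adjusted p = 0.145). MKI67, the proliferation marker Ki-67, had 573, 597 and 598 CPM in S371A, against 544, 449 and 497 in WT-1, and 142, 561 and 339 in S55A, against 416, 378 and 562 in WT-2. The spread of its S55A libraries was 60.3% of their mean, where the next most variable member there had 19.4%, and no test passed (0.25 ± 0.07 in S371A and -0.38 ± 0.54 in S55A). MYBL2 lost its S371A call without any 1 of the 6 libraries (edgeR adjusted p up to 0.135). FOXM1 lost its own without any 1 library other than S371A replicate 1 and WT-1 replicate 1 (edgeR adjusted p up to 0.068). In S55A, MYBL2 lost its call without WT-2 replicate 1 or 3 (edgeR adjusted p up to 0.0753).

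A wider set of 123 other mitotic genes, listed by role, was read from the same fits. Of the 122 tested, 22 were higher and 3 lower in S371A, 0 were higher and 26 lower in S55A, and 41 had a positive and 1 a negative difference. Over all genes tested, 7.05% were called higher and 5.53% lower in S371A, and 8.97% higher and 7.06% lower in S55A. The difference was called positive in 6.43% and negative in 6.10%. Small counts in single lists, such as 1 of 24 kinetochore genes higher in S371A, lie near these shares and were not tested against them. At an unadjusted edgeR p under 0.05, 10 were higher and 45 lower in S55A, with no share over all genes computed. Their medians were 0.12 in S371A and -0.18 in S55A. Other kinetochore genes were called mainly in S55A, with 9 of 24 lower, among them SKA3, a microtubule coupler (-0.61 ± 0.09, edgeR adjusted p = 0.00366), and CENPU, of the inner network (-0.44 ± 0.07, edgeR adjusted p = 0.00621). HJURP, the chaperone that loads CENPA, was the 1 of them higher in S371A (0.44 ± 0.08, edgeR adjusted p = 0.0148). Other checkpoint genes had 2 of 10 higher in S371A and 4 lower in S55A. TPR, of the nuclear pore basket, was in both (0.26 ± 0.06 and -0.65 ± 0.07, edgeR adjusted p = 0.0372 and 0.00145). NEK2, a centrosomal kinase, was higher in S371A (0.37 ± 0.07, edgeR adjusted p = 0.022), and KNTC1, of the complex that brings dynein to kinetochores, was lower in S55A (-0.53 ± 0.06, edgeR adjusted p = 0.0016). Other cohesin and condensin genes had 3 of 15 higher in S371A and 3 lower in S55A. NCAPD3 of condensin II was at 0.29 ± 0.05, edgeR adjusted p = 0.0127, and NIPBL, the cohesin loader, at 0.20 ± 0.04, edgeR adjusted p = 0.03 in S371A. CDCA5 (sororin) was at -0.49 ± 0.07, edgeR adjusted p = 0.00428, and the cohesin acetyltransferase ESCO2 at -0.51 ± 0.12, edgeR adjusted p = 0.0226 in S55A.

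Among 31 other genes of mitotic entry and exit, 6 were higher and 1 lower in S371A and 4 lower in S55A. CDC27, a subunit of the anaphase-promoting complex, and the kinase MELK were higher in S371A (0.25 ± 0.04 and 0.27 ± 0.05, edgeR adjusted p = 0.0123 and 0.0129), and ANAPC5, another subunit, was lower (-0.24 ± 0.05, edgeR adjusted p = 0.0297). The kinases MASTL (Greatwall), which restrains the phosphatase opposing CDK1, and PBK were lower in S55A (-0.50 ± 0.08 and -0.32 ± 0.07, edgeR adjusted p = 0.00557 and 0.022). Other spindle and cytokinesis genes had 5 of 21 higher in S371A, with DEPDC1 (0.53 ± 0.09, edgeR adjusted p = 0.0115) and the abscission protein CEP55 (0.26 ± 0.05, edgeR adjusted p = 0.015) first by p. In S55A, 2 of 21 were lower, a count near the 7.06% of all genes called lower there. They were HAUS6 of the augmin complex (-0.44 ± 0.07, edgeR adjusted p = 0.00651) and TROAP (-0.42 ± 0.08, edgeR adjusted p = 0.00925). The regulators of the programme were mixed. Of 21 tested regulators, among them MuvB and RB family genes, 5 were higher and 2 lower in S371A, and 4 were lower in S55A. TFDP2, an E2F partner, and RBL2 (p130) were lower in S371A (-0.39 ± 0.06 and -0.27 ± 0.06, edgeR adjusted p = 0.0122 and 0.0291). CDKN1A, the protein p21 that inhibits cyclin-dependent kinases, had 256, 224 and 242 CPM in S371A, against 205, 190.5 and 197 in WT-1, and 221, 228 and 238 in S55A, against 299, 294 and 296 in WT-2. It thus ran the same way as the mitotic genes in each mutant (0.28 ± 0.06 and -0.37 ± 0.05, edgeR adjusted p = 0.0246 and 0.00404, difference 0.66 ± 0.08, edgeR adjusted p = 0.000371). The repressor E2F7 was lower in S55A (-0.73 ± 0.09, edgeR adjusted p = 0.00181), and the activator E2F1 differed between the mutants by 0.62 ± 0.08, edgeR adjusted p = 0.000816.

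Per gene model length, in the deposited FPKM, TOP2A and TPX2 had among the highest values of the members in all 4 groups. TOP2A had 53.9 ± 4.06 FPKM in S371A and 49.9 ± 1.23 in WT-1, and 57.4 ± 3.53 in S55A and 55.04 ± 0.771 in WT-2 (SD, n = 3 each). TPX2 was next to it in S371A at 52.8 ± 2.83 FPKM, against 41.4 ± 0.674 in WT-1, and the TOP2A and TPX2 values in S371A did not differ beyond their spread. At the low end, CENPA had 2.35 ± 0.110 FPKM in S371A and 2.04 ± 0.256 in WT-1, and SPC24 had 1.26 ± 0.227 in S55A and 1.90 ± 0.288 in WT-2. With its fall in S55A, CENPE stood at 1.74 ± 0.0456 FPKM there, against 6.75 ± 0.0224 in WT-2. In S55A, 2 members, SPC24 and SGO2, had lower means. The FPKM tables use different gene model lengths for ASPM and MKI67, so levels of these were not set across experiments. Model lengths also exceed the longest transcript unevenly, at 9910 against 3749 bases for RAD21 and 3605 against 3605 for TPX2. The order of the members given here thus holds for the deposited FPKM only.

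GC content, measured on the longest transcript, went along with the effects. Of the 26 members under 42.55% GC, 13 were higher in S371A, 16 were lower and 1 higher in S55A, and 20 differed between the mutants. Of the 26 above, the counts were 8, 3 and 0, and 11. Spearman's rho between GC content and the log2 fold change over the 52 members was -0.22 in S371A and 0.48 in S55A, against -0.08 and 0.14 over all genes tested. With the difference between the mutant effects it was -0.54 over the members and -0.17 over all genes. Across all genes in S55A, 10.8% of those under 42.55% GC were called lower and 5.74% of those above, and in S371A 8.41% and 6.57% were called higher. The difference between the mutant effects was called positive in 10.4% of all genes under 42.55% GC and in 5.03% of those above. With a trend on GC content removed from each library, 21 members were called in S371A, all of them called before, 19 in S55A, all of them called before, and 28 in the difference, 27 of them called before. The share of GC content in these results beyond that offset was not tested.

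**Figure D5:**
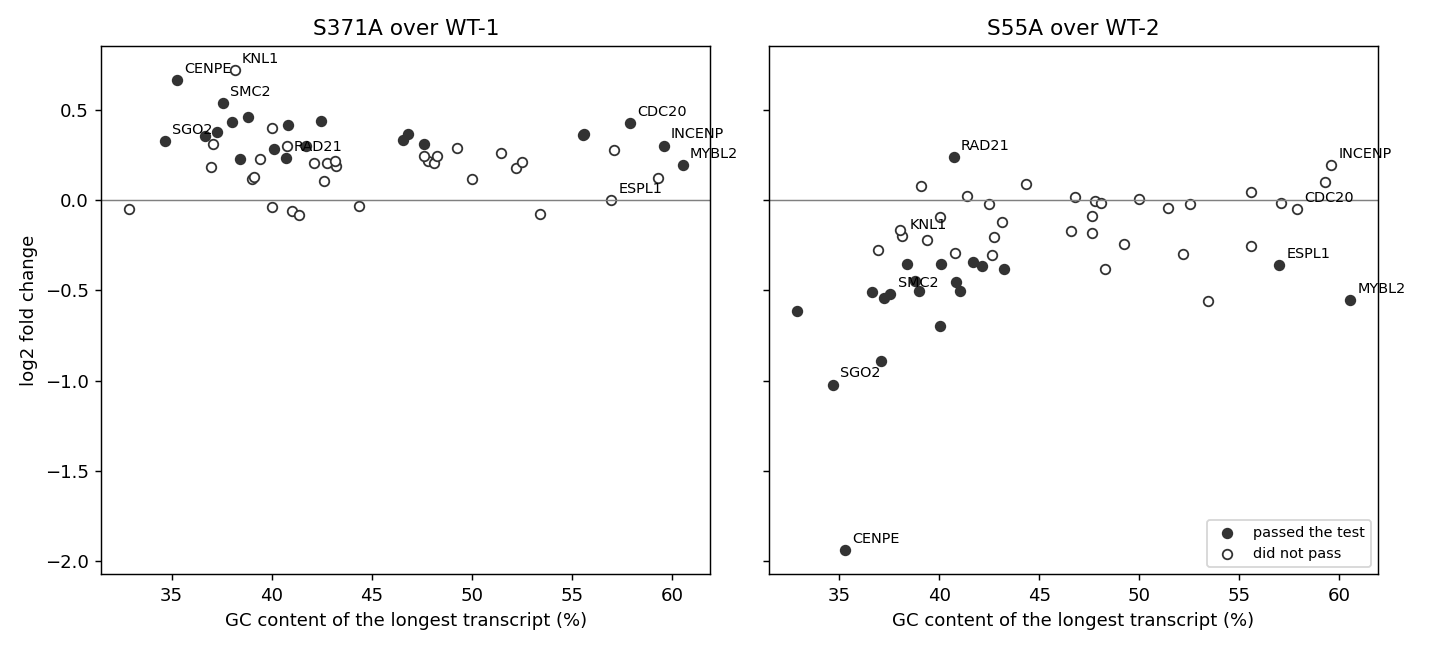
Log2 fold change of each member against the GC content of its longest transcript, S371A over WT-1 on the left and S55A over WT-2 on the right; filled points passed the edgeR test. In S55A the members with the largest falls, CENPE, SGO2 and ASPM, lie at 35.3%, 34.7% and 37.1% GC, while calls in S371A run across the whole range up to MYBL2 at 60.5%.

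Some libraries stood apart over the members. S55A replicate 3 was the lowest of its group in 32 of 52 members and S55A replicate 2 the highest in 25, and WT-1 replicate 1 was the highest of its group in 31. The median spread of a member was 5.15% of its mean in S371A and 5.22% in WT-1, and 8.54% in S55A and 5.30% in WT-2. Without S55A replicate 3, 16 members were called in S55A, of which RAD21 was higher and 15 were lower. Without WT-1 replicate 1, 17 members were called higher in S371A. Some members share sequence with another gene or overlap one on the same or the opposite strand, and strand is not given for the counts. In 7 members 10% or more of the transcript windows of 50 bases also occur in another gene: NUSAP1 (68.0%), PRC1 (63.9%), NCAPG (35.2%), SMC4 (33.5%), SGO1 (21.6%), FOXM1 (20.01%) and SPC25 (12.2%). The genes on the opposite strand had values of their own. LCORL, opposite NCAPG, was higher in S371A (0.47 ± 0.12, edgeR adjusted p = 0.0475) and not called in S55A (-0.07 ± 0.09, edgeR adjusted p = 0.63), where NCAPG was called only in S55A. IFT80, which overlaps the start of SMC4, was not called in S371A (-0.08 ± 0.05, edgeR adjusted p = 0.349) and was lower in S55A (-0.31 ± 0.08, edgeR adjusted p = 0.0373), where SMC4 was lower too. The part of these overlaps in the members' values was not tested. TRIM59, opposite SMC4, passed in neither (-0.01 ± 0.07 and -0.25 ± 0.10), and UTP23, opposite RAD21, passed in neither (-0.03 ± 0.12 and 0.16 ± 0.11). The antisense transcript of SGO1 was at most 0.151 CPM in the group means and was not tested, and ITFG2, opposite FOXM1, was at 0.29 ± 0.08, edgeR adjusted p = 0.0617 in S371A and 0.10 ± 0.07, edgeR adjusted p = 0.393 in S55A.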

How the data were processed

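The authors deposited, per the file headers, whole-number counts and FPKM values per gene for 12 libraries in 2 tables, 1 for each experiment. CASAVA, HISAT2 2.0.4, StringTie 1.3.0 and edgeR, with the builds GRCh38 and mm10, are named in the submitters' processing notes without their roles; how reads were counted, with which annotation release and on which strand, is not given in the sources used here. Gene coordinates in the tables are human, and those of all 52 members match GENCODE 29. KNL1, SGO1 and SGO2 carry older names in the second table (CASC5, SGOL1, SGOL2). The deposited FPKM equals the deposited count scaled by a gene length and the column total, to a relative deviation of at most 1.1e-05. Mutant columns were tied to groups by name. The wild-type columns have the same names in both tables, so they were assigned to WT-1 or WT-2 by the mutant they share a table with. The sample titles of that mutant and its wild type carry the same number, 1 or 2, which was read as the experiment. The number in a column's name was read as the replicate number.

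Counts were tested over all genes with edgeR 4.0.16 in R 4.3.3: filterByExpr, TMM factors, the robust quasi-likelihood F test and adjustment by Benjamini-Hochberg, with 0.05 as the threshold. The comparisons were S371A against WT-1 and S55A against WT-2, over 6 libraries each, and the difference of these effects over all 12, with genes joined by identifier. Log2 fold changes carry a standard error, computed as the fold change over the root of F; CPM uses TMM-scaled totals. The scripts were tested on simulated data. Library totals of 13667033 to 19240270 put a floor of 3 counts at 0.156 to 0.220 CPM, which covers counting error only. No pair of replicates agreed within counting noise. Values in every library are given for members called in the difference and for up to 3 called members with the smallest p in each role class and comparison; other members are given by their fold changes. From each other mitotic list, up to 2 called genes for a direction and comparison are named, except for a result not reported here. The genes overlapping members, SMC3, and CDKN1A by library, were chosen after their values were seen. The members, lists and tests were chosen with earlier results of these data known. Each result was also computed with upper quartile or RLE factors, with limma-voom (limma 3.58.1) or DESeq2 1.42.0, and unfiltered or with 1 CPM required in 3 libraries. It was computed on log2 FPKM with limma-trend at pseudocounts of 1 and 0.1, with offsets for GC content or length, with replicate number blocked (alone or beside the GC offset), and without each library.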

Additional observations from a re-analysis of the deposited data

Results flagged for a closer look

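The effect of S371A over WT-1 differed from that of S55A over WT-2 in 31 members, by the edgeR test of the difference with Benjamini-Hochberg adjustment, and each difference had a positive sign. Each mutant belongs to 1 experiment, so these differences cannot be told apart from differences between the experiments. At the kinetochore, the log2 difference was 2.61 for CENPE, 0.93 for KNL1, 0.92 for NUF2, 0.87 for CENPF, 0.66 for SPC25, 0.64 for NDC80 and 0.41 for DSN1. Among the checkpoint genes it was 0.60 for TTK, 0.57 for BUB1B, 0.46 for BUB1 and 0.45 for MAD2L1. AURKB of the chromosomal passenger complex differed by 0.62. For the factors around cohesin it was 1.36 for SGO2, 0.64 for SGO1, 0.54 for PTTG1 and 0.36 for ESPL1. Condensin genes differed by 1.06 for SMC2, 0.93 for SMC4, 0.63 for NCAPG and 0.50 for NCAPH. The difference was 0.58 for CCNA2, 0.51 for AURKA, 0.34 for CCNB1 and 0.48 for CDC20. Spindle and cytokinesis genes differed by 1.21 for ASPM, 0.87 for HMMR, 0.60 for ECT2, 0.59 for DLGAP5, 0.49 for ANLN and 0.35 for TPX2. The transcription factor MYBL2 differed by 0.75.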

How the results depend on the processing

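No alternative turned the sign of a called member. Called members numbered 21 in S371A, 20 in S55A and 31 in the difference, of which 9, 8 and 17 were called under all 12 alternatives and with each library left out. With the replicate number as a block, 10 members were called in S371A, and 9 with the block and the GC offset, which also left 11 in S55A. With 1 library left out, 13 to 17 members were called in S371A, 12 to 16 in S55A and 20 to 29 in the difference. Over all genes, S371A had 2042 calls, against 784 with the block, 827 with the block and GC offset, 1177 and 1202 on FPKM with pseudocounts of 1 and 0.1, and 917 to 1576 with 1 library left out. S55A had 2488, against 1632 with the block, 1552 and 1527 on FPKM, and 1344 to 2491 with 1 library left out. The difference had 2087, against 1098 with the block, 1246 with the block and GC offset, and 1407 to 2257 with 1 library left out. Leaving out libraries reduces the samples in each fit; the cause of the other moves was not tested. Replicate numbers are only names here: same-numbered libraries deviated together with correlations of -0.09 to -0.003 from their group means, so the samples were not treated as paired.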
